A study of Mus musculus with 48 samples.

Results

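Subcutaneous white adipose tissue (sWAT) of mice fed twice-a-night (TAN) was compared with that of mice fed ad-lib at 4 PM. The comparison holds the 8 bulk RNA-seq libraries labelled 4 PM, 4 TAN and 4 ad-lib, of the 48 libraries of the series, and they were chosen by label alone. All were male mice aged 8 months, of the strain C57BL/6 in the labels and C57BL/6J in the paper, and the groups differed in access to food: TAN mice ate within a first and a second window of the night, and ad-lib mice ate freely. The series names the material as stromal vascular cells of the inguinal depot and the paper as whole sWAT. The labels number the libraries 1 to 4 and name no animals, so p-values measure a spread between libraries. That spread was estimated over all 48 libraries within their 12 groups of diet and time, not from these 8 alone. Total counts ran from 15636378 to 23114360 in the ad-lib and from 19213494 to 23841377 in the TAN libraries, and 0 of the 28 pairs of libraries were identical.

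White adipocytes take up sugar, turn it into citrate and build fatty acids from it by de novo lipogenesis, which needs acetyl-CoA from citrate or acetate and NADPH from malic enzyme and the pentose phosphate pathway. The same cells store the fatty acids as triglyceride and release them by lipolysis, and insulin drives the first and holds back the second. The inguinal depot of the mouse also encloses a lymph node, which is filled with B and T cells and carries specialised venules, and RNA of such a node can enter a bulk library of the depot. The methods state that nodes were excluded when cells were isolated for single-cell work, and do not state it for the tissue of the bulk libraries.

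The times used here are those of the count table. In the 2 tables of per-library FPKM supplied with the paper, the 8 libraries analysed here are listed under 4 AM: over 973 genes in one table and 20 in the other, each of the 8 libraries was most like a library of the same diet and number listed 12 h apart, and 0 of 8 were most like one listed at 4 PM. The same 12 h held for all 48 libraries in both tables, with the same diet and number for 48 of 48 in the first table and 47 of 48 in the second. Genes of the circadian clock were read at both labels. Dbp, a clock output gene, had a mean CPM (counts scaled to library size, with TMM factors) of 102 ± 19.9 (SD, n = 4) in the ad-lib libraries labelled 4 PM and 27.4 ± 27.9 in those labelled 4 AM, and 154 ± 58.0 and 9.93 ± 3.47 in the TAN libraries. Arntl, the clock activator also known as Bmal1, had 9.93 ± 2.96 CPM at 4 PM and 24.9 ± 8.11 at 4 AM in ad-lib, and 4.17 ± 2.31 and 25.6 ± 3.53 in TAN. As background, Dbp is known to peak late in the light phase in mouse peripheral tissues and Arntl near the end of the dark phase. The comparison of diets itself is between the same 8 libraries under either label.

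The diets stood apart at 4 PM in the RNA of lymphocytes. The lymphocyte score, the mean log2 CPM of 10 B and T cell markers, was 6.60, 6.39, 7.25 and 6.82 in ad-lib libraries 1 to 4 and 1.11, -0.02, 4.63 and 0.80 in the TAN libraries. The groups did not overlap, and TAN library 3 lay between the other TAN libraries and the ad-lib libraries. The mean difference was -5.14 on the log2 scale. Over the 20 ad-lib libraries of the other 5 times the score ran from -0.75 to 7.38, and over the 20 TAN libraries of those times from -0.28 to 7.31, so that libraries with little lymphocyte RNA occurred in both diets. Immunoglobulin genes took 0.332% to 0.850% of the counts in the ad-lib and 0.0220% to 0.0761% in the TAN libraries of 4 PM. In bulk tissue, fewer cells of a type and less RNA per cell cannot be told apart.

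**Figure D1:**
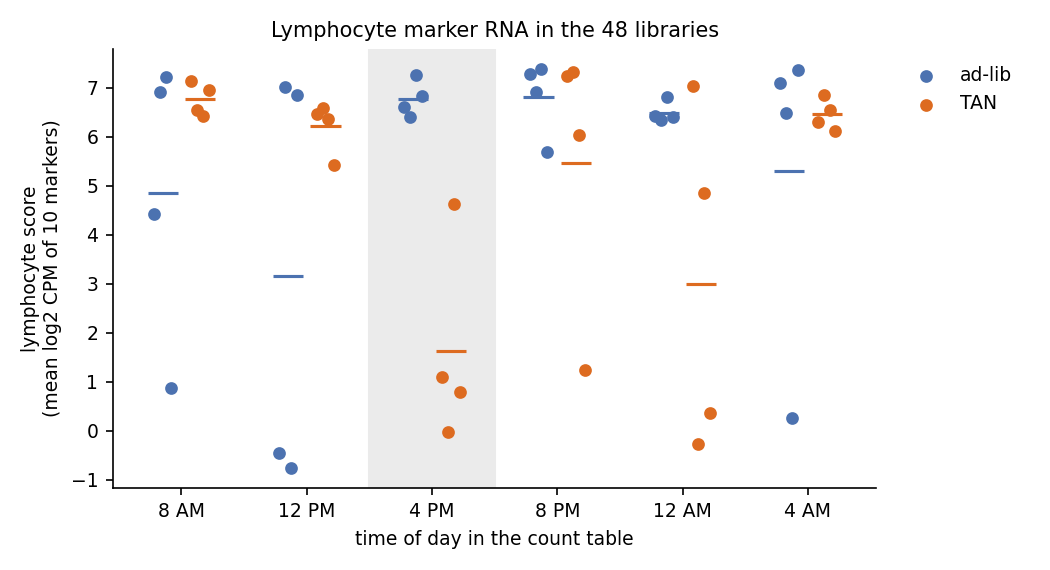
Lymphocyte score (mean log2 CPM of 10 markers, vertical axis) of the 48 libraries by time of day in the count table, ad-lib in blue and TAN in orange, with a line at each group mean and 4 PM shaded. At 4 PM the ad-lib libraries lie between 6.39 and 7.25 and the TAN libraries between -0.02 and 4.63, without overlap, while both diets hold low and high libraries at other times.

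Of the 19977 genes tested, 586 were higher in TAN (2.93%) and 1485 lower (7.43%) taking as called a gene with an adjusted p below 0.05 and a log2 fold change past 1 in size (edgeR quasi-likelihood test, Benjamini-Hochberg adjustment, TMM scaling). The 4 TAN and 4 ad-lib CPM values did not overlap for 6107 genes (30.6%), among them 540 of the genes called higher and 1406 of those called lower. Of the lower genes, 365 had at most 3 counts in every TAN library, and of the higher genes 12 had at most 3 counts in every ad-lib library. Single libraries set the number of calls. Without ad-lib library 3, 120 genes were higher and 235 lower, without TAN library 1 the counts were 212 and 289, and without ad-lib library 4 they were 292 and 784. Leaving out TAN library 2 gave 638 and 950, and leaving out TAN library 4 gave 530 and 848.

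To set lymphocyte RNA apart from the rest, each gene was classed by the Pearson r of its log2 CPM with the lymphocyte score over the 40 libraries of the other 5 times, after the mean of each group was removed, so that no 4 PM library entered the classing. Genes linked to the score (r of at least 0.5) were 3626, or 18.2% of the genes tested, and they held 1148 of the 1485 lower genes (77.3%) and 0 of the higher genes. Genes inversely linked (r of at most -0.5) were 3287, or 16.5% of the genes tested, and they held 457 of the 586 higher genes (78.0%) and 1 lower gene. In the unlinked class (r between -0.3 and 0.3), with 7859 genes, 36 were higher and 143 lower. The remaining 5205 genes held 93 higher and 193 lower genes. The slope of each gene on the score over those 40 libraries, multiplied by the score difference of -5.14, correlated across genes with the log2 fold change at 4 PM (r = 0.644, genes are not independent replicates and libraries share depth and composition). Most of the genes called at 4 PM were thus genes that moved with or against lymphocyte RNA in libraries of other times.

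**Figure D2:**
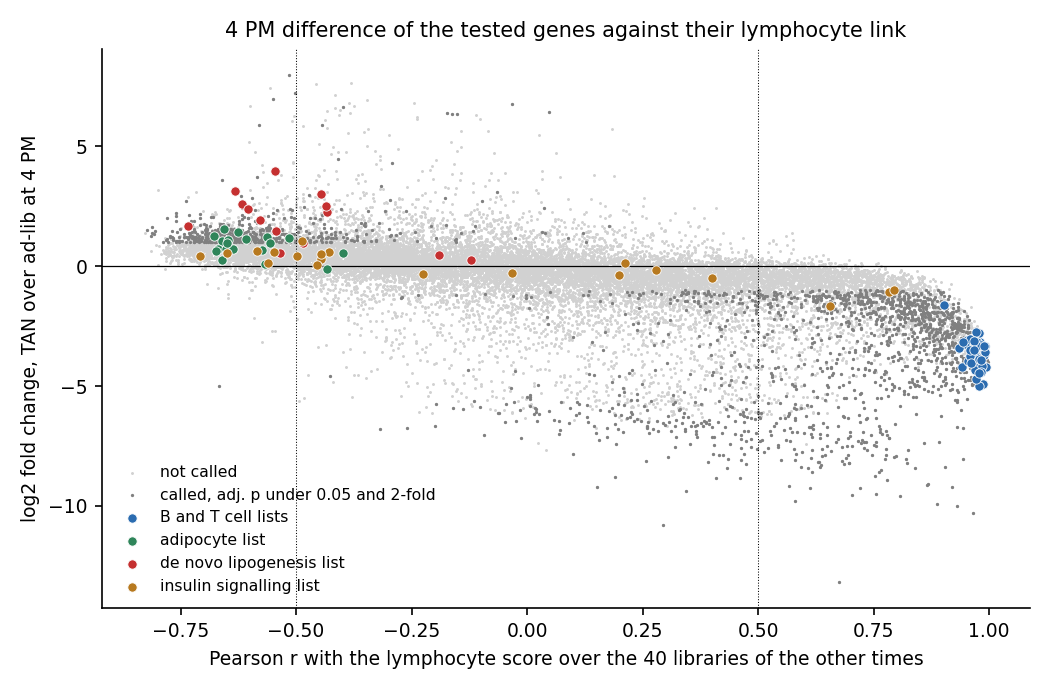
Log2 fold change of TAN over ad-lib at 4 PM (vertical axis) of the 19977 tested genes against the Pearson r of each gene with the lymphocyte score over the 40 libraries of the other times (horizontal axis), with dotted lines at r of -0.5 and 0.5. Called genes are dark grey, and genes of 4 lists are coloured: B and T cell genes sit at the far right and low, the adipocyte list sits at the left and high, and genes of de novo lipogenesis reach the largest positive values among the 4 lists.

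B cell genes were lower in TAN at 4 PM. All 18 tested members of the B cell list had a negative log2 fold change and none overlapped between the diets, with a median of -4.07 beside -0.09 over all tested genes, and 10 passed the test. DESeq2 and an unadjusted p under 0.05 each gave 18 lower, limma gave 2, and edgeR on only the 8 libraries of 4 PM gave 16. Cr2, a complement receptor of B cells, was at 115, 98.1, 191 and 156 CPM in the ad-lib libraries and at 2.93, 1.03, 11.8 and 1.84 CPM in the TAN libraries. The ad-lib values lay above all TAN values, and TAN library 3 was the highest of its group. Cr2 fell from a mean of 140.2 ± 41.9 CPM to 4.40 ± 4.995 CPM (SD, n = 4, log2 fold change -4.98, adjusted p = 0.0226, edgeR), and Cd22, an inhibitory receptor of B cells, fell by 4.93 on the log2 scale. Bank1, a B cell scaffold protein, fell by 4.28 (adjusted p = 0.0144, edgeR) and was the one of these 3 that stayed called whichever of the 8 libraries was left out. The call of Cr2 was lost without ad-lib library 3 or without TAN library 1, 2 or 4, and that of Cd22 without ad-lib library 3 or 4 or without TAN library 1, 2 or 4.

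T cell genes lay in the same direction, with fewer calls. All 21 tested members of the T cell list were negative, with a median of -3.31, 20 did not overlap and 5 passed the test. An unadjusted p under 0.05 gave 20 lower, DESeq2 16, limma 0, and edgeR on only the 8 libraries of 4 PM 16. Cd4, the coreceptor of helper T cells, fell by 4.22 on the log2 scale (adjusted p = 0.0321, edgeR), Il7r, the interleukin-7 receptor, fell by 4.16, and Bcl11b, a transcription factor of the T lineage, fell by 4.22. Cd3e, a chain of the T cell receptor complex, had a log2 fold change of -3.18 (adjusted p = 0.0836, edgeR), Cd8a, of cytotoxic T cells, -3.28 (adjusted p = 0.0947) and Ccr7, the receptor that guides lymphocytes to nodes, -3.31 (adjusted p = 0.107), and these 3 did not pass. The calls of Cd4 and Il7r were lost without ad-lib library 3 or 4 or without TAN library 1, 2 or 4, and that of Bcl11b also without ad-lib library 1.

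Antigen receptor segments were counted as genes of their own. Of 699 listed, 297 were tested, 131 were lower and 0 higher. The median log2 fold change was -5.002 over 196 immunoglobulin segments, or -4.05 with the 78 that had at most 3 counts in every TAN library set to their bound, and -3.92 over 101 T cell receptor segments, or -2.68 with 53 at their bound. Igkc, the constant region of the kappa light chain and the most counted immunoglobulin segment, was at 1912, 908, 1939 and 691 CPM in the ad-lib and at 101, 29.4, 242 and 29.3 CPM in the TAN libraries (log2 fold change -3.76 ± 0.90 SE, adjusted p = 0.0111, edgeR). Trbc2, the most counted T cell receptor segment, had a mean of 92.1 ± 24.4 CPM in ad-lib and 12.5 ± 22.6 CPM in TAN, without overlap and without passing the test (log2 fold change -2.88, adjusted p = 0.139, edgeR). Segments are near-identical to one another, and the reads of 1 may be counted on another.

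The 5 lower genes with the largest fold changes were Igkv3-1, Il5ra, Vmn2r84, Igkj5 and Igkv4-55, each at 0 counts in all 4 TAN libraries. With 3 counts over the group as the limit that a count of 0 allows, Il5ra was at least 183-fold lower, Vmn2r84 at least 153-fold, Igkj5 at least 141.5-fold and Igkv4-55 at least 129-fold, all by counting error only. Igkv3-1, a kappa variable segment, was at 209.9 CPM in ad-lib library 1 and between 0.448 and 6.53 CPM in the other 3, so that 1 library held nearly all of it. All 5 stayed called whichever library was left out.

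Some genes of the node's stroma and of plasma cells were also lower. Of 13 tested stroma genes 4 were lower and 0 higher. Chst4, a sulfotransferase of high endothelial venules, was at 3.97, 1.72, 4.77 and 3.66 CPM in the ad-lib libraries and at 0 in all TAN libraries, at least 87.6-fold lower. Cxcl13, the chemokine of B cell follicles, fell by 2.86 on the log2 scale (adjusted p = 0.0174, edgeR) and lost its call without ad-lib library 3 or TAN library 1. Glycam1, the venule ligand of L-selectin, was at 54.0, 38.8, 31.6 and 35.2 CPM in ad-lib and at 0, 0, 12.96 and 0.558 CPM in TAN, and Ccl21a, the chemokine of the node's T cell zone, had a mean of 14.5 ± 12.8 CPM in ad-lib and 0.917 ± 1.62 CPM in TAN. Neither passed the test (adjusted p = 0.0980 and 0.0695, edgeR). Of 8 plasma cell genes 2, Jchain and Derl3, were lower and 0 higher, and Xbp1, Fkbp11 and Sdc1 had log2 fold changes of 0.66, 0.31 and 0.18 without passing the test. Jchain, the joining chain of secreted immunoglobulin in plasma cells, fell by 3.69 (adjusted p = 0.0151, edgeR), a call lost without ad-lib library 3, and its r with the lymphocyte score over the other times was 0.40.

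Genes of type 2 immunity, which the study follows in its cell work, were read with this in view. Of 14 tested genes of the list, 4 were lower and 0 higher. The median was -1.77, and it stood at -0.37 with the lymphocyte score as a covariate. In sign 9 were negative and 5 positive, among the latter Ccl24 at 1.36, Ccl11 at 0.85 and Rora at 0.59. Gata3 and Il1rl1, which the paper takes as markers of group 2 innate lymphoid cells, stood at -3.14 and -0.78. Neither passed the test (adjusted p = 0.0729 and 0.127, edgeR). Il33, the alarmin cytokine that drives group 2 innate lymphoid cells, was at 34.0, 33.5, 39.5 and 31.4 CPM in the ad-lib and at 6.90, 3.94, 16.1 and 6.47 CPM in the TAN libraries. It fell by 2.05 on the log2 scale (SE 0.57, adjusted p = 0.0192, edgeR), and the call was lost without ad-lib library 3 or TAN library 1 or 2. The r of Il33 with the lymphocyte score over the other times was 0.80, and the covariate left a log2 fold change of -0.71 (adjusted p = 0.439, edgeR). Il5ra, a chain of the interleukin-5 receptor, was at 6.18, 6.50, 8.87 and 7.88 CPM in ad-lib and at 0 in TAN, and its r was 0.97. Il2ra, the high-affinity interleukin-2 receptor chain, fell by 2.26, with an r of 0.86 and a call lost without ad-lib library 3 or TAN library 1 or 2. With the covariate Il5ra stood at -6.33 and Il2ra at -0.55, both without a call. The r values of Il33, Il5ra and Il2ra describe the libraries of the other times. How much of their fall at 4 PM belongs to the fat tissue was not tested.

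Other immune and tissue cell types gave fewer calls, beside 2.93% of all tested genes called higher and 7.43% called lower. Of 15 macrophage genes 1 was lower: Csf1r, the receptor of the macrophage growth factor, fell by 1.24 (adjusted p = 0.0159, edgeR), a call lost without ad-lib library 3 or TAN library 1. Adgre1, a macrophage surface marker, had a log2 fold change of -0.94 (adjusted p = 0.131). The summed CPM of the list was 1593 to 2472 in ad-lib and 579 to 2140 in TAN, where library 3 was the highest. The 8 mast cell genes were all negative with a median of -1.10, and edgeR called 0 of them, with 1 lower at an unadjusted p under 0.05, 1 in DESeq2 and 0 in limma. Pecam1, of endothelium, had a log2 fold change of -0.67 (adjusted p = 0.0283), short of the fold required, and edgeR called 0 of 12 endothelial genes, as did DESeq2, limma and the unadjusted p, and 0 of 13 stromal progenitor genes, of which 1 was lower at an unadjusted p under 0.05, in DESeq2 and in limma. Epcam, an epithelial adhesion gene, was at 4.14, 2.71, 3.99 and 3.92 CPM in ad-lib and at 0, 0, 0.416 and 0 CPM in TAN and fell by 4.97 (adjusted p = 0.0211, edgeR). Its r with the lymphocyte score was 0.84, Krt8 of the same epithelial list was under 1 CPM in every library, and the call was lost without ad-lib library 3 or TAN library 1 or 4. Of 12 skeletal muscle genes edgeR called 0, also at an unadjusted p under 0.05, limma 0 and DESeq2 2, and the defining genes Ckm, Myh1, Myh2 and Myh4 had means under 1 CPM in both diets.

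The summed level of adipocyte markers was larger in the TAN libraries. The summed CPM of 19 adipocyte markers, which include Adipoq, Plin1 and Fabp4, was 31832, 36661, 25808 and 32483 in the ad-lib and 85084, 58978, 68182 and 59549.8 in the TAN libraries, without overlap, so that the defining genes of fat were present in all 8. The median log2 fold change of the list was 0.96, and 18 of 19 were positive. Only Fabp4, the fatty acid carrier (1.44, adjusted p = 0.0310, edgeR), and Retn, the hormone resistin (1.56, adjusted p = 0.0173, edgeR), passed the test, the first of which lost its call without ad-lib library 1, 3 or 4 or TAN library 1, and the second without ad-lib library 3 or TAN library 1. Adipoq, the adipocyte hormone adiponectin, was at 2147, 2301, 1424 and 1949 CPM in ad-lib and at 6069, 3896, 5361 and 3414 CPM in TAN (log2 fold change 1.26, adjusted p = 0.0672, edgeR), and Plin1, which coats the lipid droplet, had a log2 fold change of 0.97 (adjusted p = 0.126). The slope of the list over the other times multiplied by the score difference gave a median of 0.84 beside the 0.96 observed, and the covariate left 0.04. Why the markers were higher in TAN was not tested.

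Gene changes were also read relative to adipocyte RNA. Scaling each library to the summed counts of the adipocyte list moved all log2 fold changes down by a median of 1.07, and scaling to the geometric mean of the list, added after the data were seen, by 0.83. Both scales take the markers as equal per adipocyte between the diets, which was not tested. Fabp4, called higher with TMM, and Cfd had means of 7032 and 8015 CPM in ad-lib and 19083 and 17806 CPM in TAN. The mean sum of the list was 31696 CPM in ad-lib and 67949 CPM in TAN. On the summed scale 28 genes were higher (0.14%) and 5691 lower (28.5%), and on the geometric scale 30 were higher (0.15%) and 1370 lower (6.86%). All 28 were also higher with TMM, and 17 genes were higher on both adipocyte scales. With the lymphocyte score as a covariate in the TMM fit, edgeR called 0 genes in either direction, while p below 0.05 without adjustment and the same fold were met by 284 genes on the higher side (1.42%) and 769 on the lower (3.85%). Of the 28 genes 9 were members of the lists: Slc2a5 of hexose entry, Slc25a1, Acly, Acss2, Fasn and Elovl6 of de novo lipogenesis, Me1 of lipogenesis and NADPH supply, Tkt of the pentose phosphate pathway, and Elovl3, of the thermogenic list. Others, named after their values were seen, were Pth1r, the parathyroid hormone receptor, Ptger3, a prostaglandin E2 receptor that acts on lipolysis, Hsd11b1, which activates glucocorticoid, and Apoc3, an apolipoprotein, while Slc15a5, Ambp, Crisp2 and Rfx4 were among those at low counts.

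Genes of de novo lipogenesis had a positive median log2 fold change on every scale used, though not all members did. Of 14 tested, 10 were higher and 0 lower with TMM, with a median log2 fold change of 2.10, which was 1.07 on the summed and 1.26 on the geometric adipocyte scale, 1.09 with the covariate and 0.78 as the median of slope times score difference. On the summed scale 6 of the 14 and on the geometric scale 7 of the 14 stayed called higher, and with the covariate 0 did. On the summed scale 10 of 14 were positive, and Elovl5, Acacb, Acsl1 and Mid1ip1 stood at -0.87, -0.55, -0.49 and -0.087. The summed CPM of the list per CPM of the adipocyte list was 0.643, 0.563, 0.472 and 0.515 in the ad-lib and 0.790, 0.973, 0.621 and 1.25 in the TAN libraries, a mean of 0.548 ± 0.0732 against 0.908 ± 0.269 (SD, n = 4), where TAN library 3 lay below ad-lib library 1. Most of this sum was Scd1, with means of 12950 CPM in ad-lib and 41936 CPM in TAN. The whole list summed to 12174 to 20622 CPM in ad-lib and to 42310 to 74340 CPM in TAN.

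The path was followed from the sugar inwards. Slc2a5, the fructose transporter, was at 4.26, 1.92, 0.195 and 0.0374 CPM in the ad-lib and at 15.9, 26.9, 19.99 and 77.7 CPM in the TAN libraries. The lowest TAN value lay above the highest ad-lib value, and the log2 fold change was 4.49 ± 0.82 (SE, adjusted p = 0.00600, edgeR), 3.54 on the summed adipocyte scale and 3.64 with the covariate. Slc2a4, the insulin-regulated glucose transporter, rose by 1.29 (adjusted p = 0.0448, edgeR), a call that was lost in each of the 8 fits without 1 library and on the summed adipocyte scale, where it was 0.26.

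Carriers and enzymes that supply acetyl-CoA rose together. Slc25a1, which exports citrate from mitochondria, was at 295, 252, 193 and 182 CPM in ad-lib and at 1026, 1136, 1058 and 1683 CPM in TAN (log2 fold change 2.41 ± 0.47 SE, adjusted p = 0.00618, edgeR). Acly, which splits citrate to acetyl-CoA, was at 411, 228, 187 and 159 CPM in ad-lib and at 1337, 1957, 859 and 3792 CPM in TAN (3.01 ± 0.56 SE, adjusted p = 0.00600, edgeR). Acss2, which makes acetyl-CoA from acetate, rose by 2.61 ± 0.51 (SE, adjusted p = 0.00618, edgeR). None of these 3 overlapped between the diets, and the TAN spread was wide, with library 4 the highest for each.

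The synthetic steps followed. Fasn, fatty acid synthase, was at 809.7, 546, 577 and 434 CPM in ad-lib and at 2434, 4761, 1642 and 4608 CPM in TAN (2.51 ± 0.56 SE, adjusted p = 0.00905, edgeR). Elovl6, which extends palmitate, was at 84.1, 39.1, 30.1 and 27.7 CPM in ad-lib and at 589.9, 698, 204 and 1376 CPM in TAN (3.99 ± 0.69 SE, adjusted p = 0.00397, edgeR), and it was the called gene of the list with the largest fold change. Acaca, acetyl-CoA carboxylase, rose by 2.25 (adjusted p = 0.0156, edgeR) with an overlap between TAN library 3 at 374 CPM and ad-lib library 1 at 431 CPM, and the call was lost without ad-lib library 3 or TAN library 4. Scd1, the desaturase, rose from a mean of 12950.3 ± 3304 CPM to 41936 ± 8586 CPM (SD, n = 4, log2 fold change 1.70, adjusted p = 0.0315, edgeR), and 0.63 remained on the summed adipocyte scale without a call. Thrsp, the lipogenic Spot 14 protein, rose by 1.95 (adjusted p = 0.0205, edgeR) and was at 0.88 on that scale. The call of Scd1 was lost without ad-lib library 1, 3 or 4 or TAN library 1 or 4, and that of Thrsp without ad-lib library 3 or 4 or TAN library 1. The calls of Slc2a5, Slc25a1, Acly, Acss2, Fasn and Elovl6 held in each of the 8 fits without 1 library.

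**Figure D3:**
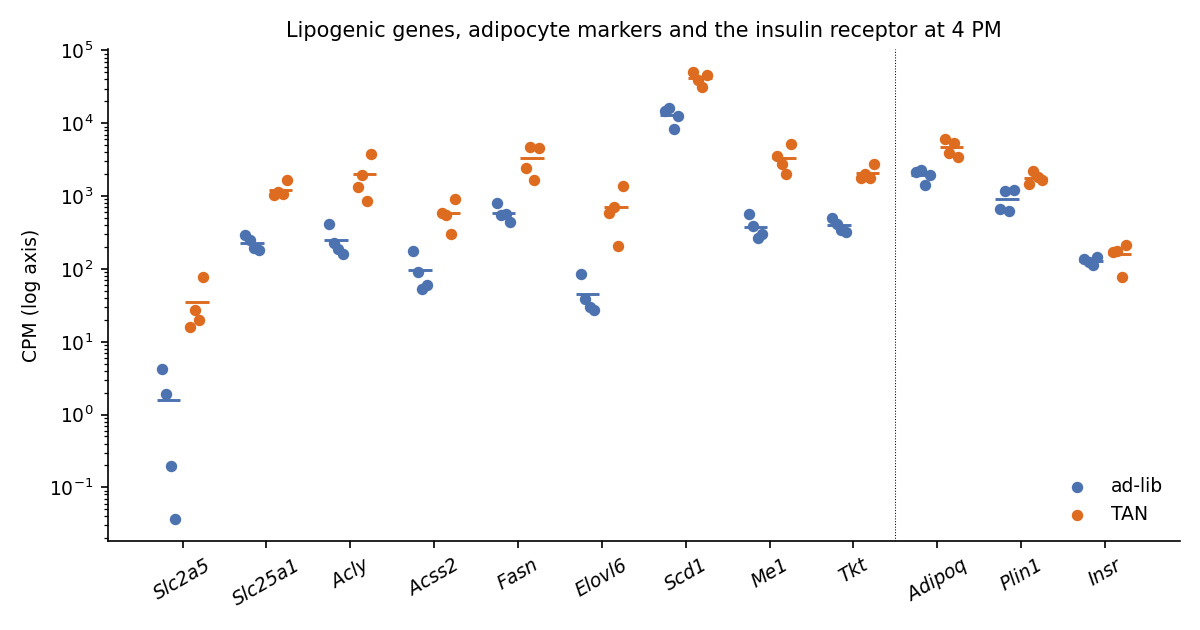
CPM (log axis) of 9 lipogenic genes, 2 adipocyte markers and the insulin receptor in the 4 ad-lib (blue) and 4 TAN (orange) libraries of 4 PM, with a line at each mean. For the 9 genes left of the dotted line all TAN points lie above all ad-lib points, while Insr, with a log2 fold change of 0.30, overlaps.

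Supply of NADPH moved in the same direction. Me1, cytosolic malic enzyme, was at 568, 388, 262 and 298 CPM in ad-lib and at 3563, 2774, 1998 and 5149 CPM in TAN (3.15 ± 0.59 SE, adjusted p = 0.00618, edgeR). Tkt, transketolase of the pentose phosphate pathway, was at 498, 415, 348 and 320.3 CPM in ad-lib and at 1752, 1988, 1752 and 2765 CPM in TAN (2.38 ± 0.38 SE, adjusted p = 0.00170, edgeR). Its value was 1.33 on the summed adipocyte scale (adjusted p = 0.0267, edgeR) and 1.81 with the covariate (adjusted p = 0.0577, edgeR). Of the 9 tested genes of the pathway and of NADPH supply, Me1 and Tkt among them, 7 were higher and 0 lower with TMM (median 1.22), 2 stayed called on each adipocyte scale, and the medians there were 0.15 and 0.39. G6pdx, the first enzyme of the pathway, rose by 1.22 with TMM and stood at 0.15 on the summed scale, a call lost also without ad-lib library 3 or TAN library 1 or 4. Pgd, the next NADPH-forming step, rose by 1.73 and Taldo1, transaldolase, by 1.36, and their calls with TMM held in each of the 8 fits, as did those of Me1 and Tkt. Per CPM of the adipocyte list, the summed CPM of the list was 0.0586 ± 0.00944 in ad-lib and 0.121 ± 0.0422 in TAN (SD, n = 4), without overlap.

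Regulators of these genes gave few calls. Of 15 tested, 1 was higher and 1 lower, beside 2.93% and 7.43% of all tested genes, with a median of 0.15. Mlxipl, the gene of ChREBP, was at 19.5, 25.1, 18.0 and 23.7 CPM in ad-lib and at 12.9, 57.7, 17.6 and 63.8 CPM in TAN, where 2 libraries lay at or below the ad-lib range (log2 fold change 0.82, adjusted p = 0.330, edgeR). Srebf1, the gene of SREBP-1, had a log2 fold change of 0.47 (adjusted p = 0.419), and both changed sign on the adipocyte scales and with the covariate. Pnpla3, a triglyceride lipase gene that rises with lipogenesis, rose by 1.55 (adjusted p = 0.0283, edgeR), a call lost without ad-lib library 1, 3 or 4 or TAN library 1 or 4. Mlxip, the paralog of ChREBP, fell by 1.05 (adjusted p = 0.0487, edgeR), a call lost without ad-lib library 2, 3 or 4 or TAN library 1, 3 or 4 and with the replicate block.

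Since the lipogenic genes moved together, their promoters were read in the RefSeq windows of GRCm38.p6, 250 bases before to 50 after each start, of which 12 of the 14 list genes had 1 or more. The motif CCAAT, bound by the factor NF-Y, was found on either strand in 9 of 12 (75.0%), in 41.1% of 27025 genes with a window and in 42.2% of those tested. The E-box CACGTG, of the ChREBP and USF type, was in 2 of 12 (16.7%), in 8.09% of all and in 10.8% of those tested, and the sterol-type motif TCACNCCAC in 1 of 12 (8.33%), in 1.44% of all. No test was run on these shares, and a match is a description of letters. Windows around motifs upstream of the start of 4 genes that rose are printed 5′ to 3′ on the strand of the gene, with the motif or its reverse complement in capitals, since they show the motif that most of the list shares beside an E-box. The windows are, in order, chr11:120824595-120824619 (minus strand), chr2:155517960-155517984 (plus), chr7:97417588-97417612 (minus) and chr16:17928443-17928468 (minus).
Fasn: gcctcggtgtCCAATtggtttcgat
Acss2: cctacccactATTGGatgcctagag
Thrsp: ctgtgttgctCCAATggttgggctt
Slc25a1: gctccagacgCACGTGtctctaaact

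Glycolysis and entry into the mitochondrion were higher with TMM and less so relative to adipocyte RNA. Of 21 tested genes 15 were higher and 0 lower (median 1.25, 0.17 on the summed and 0.44 on the geometric adipocyte scale, 0.73 with the covariate), with 0 and 1 of them called on the adipocyte scales. Eno1, enolase, rose by 1.46 ± 0.24 (SE, adjusted p = 0.00273, edgeR), Ldha, lactate dehydrogenase, by 1.44 and Pkm, pyruvate kinase, by 1.05, which was -0.02 on the summed adipocyte scale. Mpc1, a subunit of the mitochondrial pyruvate carrier, was at 55.1, 42.0, 43.0 and 47.4 CPM in ad-lib and at 252, 128, 143 and 168 CPM in TAN (1.88 ± 0.40 SE, adjusted p = 0.00724, edgeR), and Pdhb and Pdha1, of pyruvate dehydrogenase, rose by 1.77 and 1.67. Mpc1 kept 0.74 and Pdhb 0.68 on the summed adipocyte scale (adjusted p = 0.0319 for each, edgeR), under the fold required. The call of Pkm was lost without TAN library 4 and that of Pdha1 without ad-lib library 3.

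Nuclear mitochondrial genes stayed near the adipocyte markers on the adipocyte scales, but above them with the lymphocyte covariate. All 36 tested nuclear genes of respiratory complex I were positive without overlap, and 28 were higher (median 1.16), but the median was 0.05 on the summed and 0.35 on the geometric adipocyte scale, with 0 calls on both. In the TCA cycle and its carriers 11 of 25 were higher and 1 lower, Slc25a12, an aspartate-glutamate carrier (median 0.97, -0.09 and 0.16 on the adipocyte scales). Mdh2, malate dehydrogenase, rose by 1.19 ± 0.23 (SE, adjusted p = 0.00618, edgeR), Cs, citrate synthase, by 1.06, and Pcx, pyruvate carboxylase, by 1.58, of which Cs was at -0.00091 and Pcx at 0.55 on the summed adipocyte scale. The TCA list summed to 0.146 ± 0.00619 per adipocyte CPM in ad-lib and to 0.146 ± 0.0293 in TAN (SD, n = 4). The call of Cs was lost without ad-lib library 3 or TAN library 4 and that of Pcx without ad-lib library 3. The 13 mitochondrially encoded genes had a median of 0.59, and of -0.50 and -0.26 on the adipocyte scales. With the lymphocyte covariate the medians were 0.79 for complex I (36 of 36 positive) and 0.47 for the TCA list (22 of 25). They were -0.14 for the mitochondrially encoded genes (5 of 13) and 0.04 for the adipocyte list (11 of 19).

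Fatty acid oxidation and the breakdown of branched-chain amino acids also stayed near the adipocyte markers on the adipocyte scales. With the covariate their medians were 0.32 and 0.25. Of 23 oxidation genes 9 were higher (median 0.89, -0.14 and 0.08 on the adipocyte scales), among them Acads and Acadm, the short- and medium-chain dehydrogenases, at 1.03 and 1.07, and Decr1, of unsaturated fatty acids, at 1.25. On the summed scale Acads and Acadm stood at -0.028 and -0.0077. Of 22 branched-chain genes 5 were higher (median 0.90, -0.18 and 0.12), with Hsd17b10 at 1.19 and Mcee at 1.25. The calls of these 5 were lost without ad-lib library 3 or TAN library 1, and some also without ad-lib library 1 or 4 or TAN library 3 or 4. Antioxidant genes were higher in 8 of 22 (median 0.96, -0.14 and 0.13, and 0.48 with the covariate). Among them Gpx4, which repairs lipid peroxides, was at 1.42, Sod2, the mitochondrial superoxide dismutase, at 1.31 and Prdx6, a peroxiredoxin, at 1.21. All 3 lost their calls without ad-lib library 3, and Prdx6 also without TAN library 1.

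Genes of cholesterol synthesis were higher with TMM. Of 21 tested genes 8 were higher (median 0.96, -0.12 on the summed and 0.14 on the geometric adipocyte scale). Nsdhl, of the later steps, was at 40.1, 23.7, 22.3 and 18.8 CPM in ad-lib and at 99.2, 67.0, 80.6 and 114 CPM in TAN, without overlap, and rose by 1.78 ± 0.37 (SE, adjusted p = 0.00705, edgeR). Pmvk, of the mevalonate steps, rose by 1.47 (adjusted p = 0.00933, edgeR). The calls of both held in each of the 8 fits without 1 library. The r of Nsdhl with the lymphocyte score over the other times was -0.70, and the covariate left 1.05.

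Triglyceride and glycogen genes gave 4 calls each. Of 16 triglyceride genes 4 were higher (median 0.82, -0.23 and 0.01 on the adipocyte scales), among them Dgat2, the last step of the path, at 1.49, whose call held only without ad-lib library 2, and Agpat2, which acylates lysophosphatidic acid, at 1.45, whose call was lost without ad-lib library 1, 3 or 4 or TAN library 1 or 4. Of 21 glycogen genes 4 were higher (median 0.78, -0.26 and -0.05). Gbe1, the branching enzyme, rose by 1.90 (adjusted p = 0.00921, edgeR) and Pygl, a glycogen phosphorylase, by 1.74, in each of the 8 fits without 1 library. Gys2, a glycogen synthase, rose by 1.76, a call lost without ad-lib library 3 or TAN library 4. Ppp1r3b, a glycogen-targeting subunit of protein phosphatase, was at 11.6, 14.5, 7.35 and 17.7 CPM in ad-lib and at 31.3, 41.3, 45.5 and 103 CPM in TAN, without overlap, but did not pass the test (2.11 ± 0.82 SE, adjusted p = 0.0683, edgeR).

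Lipolysis and hormone genes of the adipocyte moved little beyond its markers. Of 21 lipolysis and lipid droplet genes 2 were higher. Lipe, hormone-sensitive lipase, had a log2 fold change of 0.69 (adjusted p = 0.181, edgeR) and Pnpla2, adipose triglyceride lipase, 0.71 (adjusted p = 0.202), and both were negative on the adipocyte scales. Of 13 adipokine genes 2 were higher, Retn above and Rbp4, the retinol carrier, which rose by 1.89 (adjusted p = 0.0154, edgeR) and kept 0.77 on the summed adipocyte scale (adjusted p = 0.0267), under the fold required. The TMM call of Rbp4 was lost without ad-lib library 3 or TAN library 1. Lep, the gene of leptin, was at 353, 698, 157 and 579 CPM in ad-lib and at 997, 929, 1172 and 942 CPM in TAN, without overlap and without passing the test (1.18 ± 0.62 SE, adjusted p = 0.181, edgeR). Pparg and Cebpa, the master factors of adipogenesis, had log2 fold changes of 0.96 and 1.22 without passing the test, and Klf15, of the same list, rose by 1.26 (adjusted p = 0.0385, edgeR), a call lost in each of the 8 fits without 1 library.

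Genes of insulin signalling gave 0 calls in edgeR of 20 tested, while p below 0.05 without adjustment gave 1 higher and 3 lower, limma 1 higher and DESeq2 3 lower, with a median of 0.14 and -0.92 and -0.68 on the adipocyte scales. Insr, the insulin receptor, was at 135, 125, 112 and 147 CPM in ad-lib and at 171, 178, 78.4 and 212 CPM in TAN (0.30 ± 0.36 SE, adjusted p = 0.598, edgeR), and Irs1, its substrate, had a log2 fold change of 0.59 (adjusted p = 0.465). Both changed sign on the adipocyte scales and with the covariate. Per CPM of the adipocyte list the list summed to 0.0604 ± 0.00376 in ad-lib and 0.0353 ± 0.0101 in TAN (SD, n = 4), without overlap. On the summed adipocyte scale 8 of the 20 were called lower, beside 28.5% of all genes, and on the geometric scale 0 of the 20, beside 6.86%. The median of all tested genes was -1.16 and -0.92 on these scales, below the -0.92 and -0.68 of the list.

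**Figure D4:**
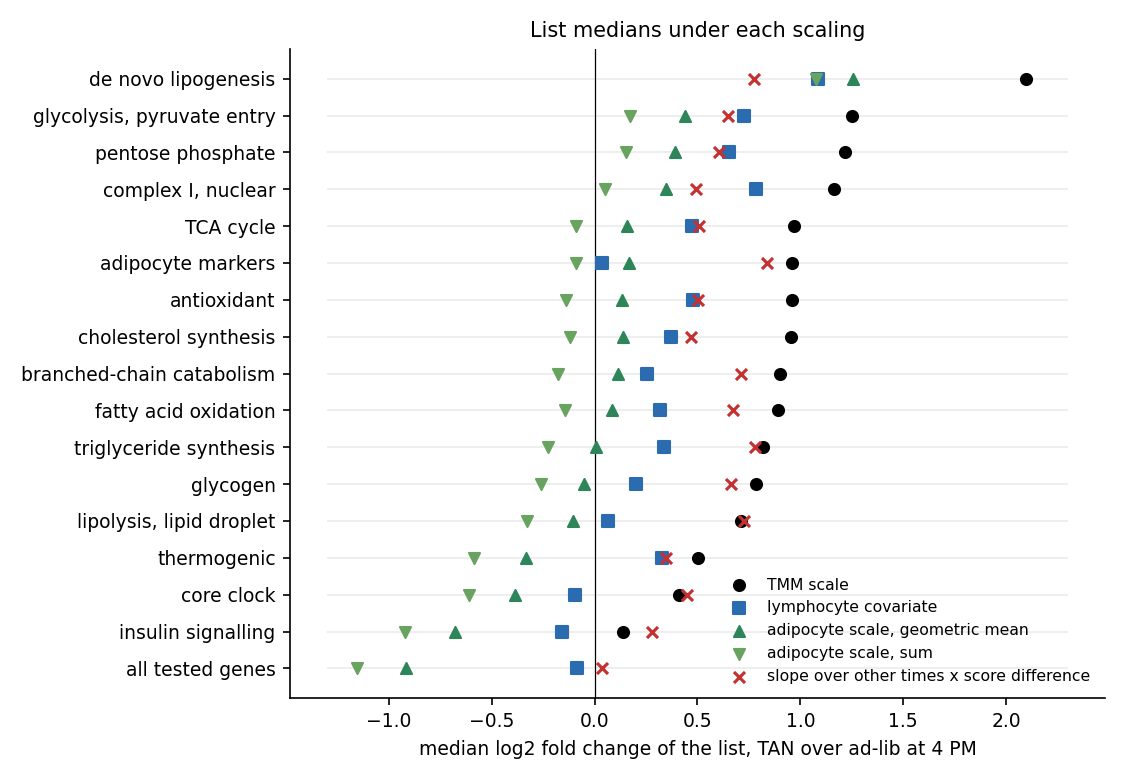
Median log2 fold change of TAN over ad-lib at 4 PM (horizontal axis) of 16 lists and of all tested genes with TMM scaling (circles), with the lymphocyte covariate (squares), on both adipocyte scales (triangles), and as the product of slope and score difference (crosses). De novo lipogenesis stays above 1 under every scaling of the measured counts, while glycolysis goes from 1.25 to 0.17 and insulin signalling from 0.14 to -0.92 on the summed adipocyte scale, where all tested genes go from -0.09 to -1.16.

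Some thermogenic genes were low in level. Of 17 tested, 3 were higher and 0 lower (median 0.50, -0.59 and -0.34 on the adipocyte scales). On a separate list of brown fat markers 3 of 9 tested were higher and 0 lower, and 7 were positive. Its median was 1.49, with 0.50 on the summed and 0.75 on the geometric adipocyte scale and 1.08 with the covariate. On the summed scale 1 of them was called higher and 1 lower, and on the geometric scale 0. Cidea, a lipid droplet protein of brown and beige adipocytes, was at 22.7, 37.2, 20.9 and 25.4 CPM in ad-lib and at 57.6, 70.1, 84.2 and 139 CPM in TAN (1.72 ± 0.42 SE, adjusted p = 0.0119, edgeR). It had an r of -0.18 with the lymphocyte score, kept 1.49 with the covariate (adjusted p = 0.230, edgeR) and lost its call only without ad-lib library 3. Cox7a1, a cytochrome oxidase subunit of muscle and brown fat, was at 1.99, 2.71, 1.60 and 0.598 CPM in ad-lib and at 9.09, 10.5, 5.37 and 12.2 CPM in TAN (2.43, adjusted p = 0.0236, edgeR), a call lost without ad-lib library 3 or 4 or TAN library 1. Elovl3, a fatty acid elongase of cold-exposed brown fat, had 1 count in the ad-lib and 99 in the TAN libraries, a ratio of 120.1 with a counting interval of 21.1 to 4792 (exact binomial, 95%), and its call was lost without ad-lib library 1 or 3 or TAN library 1. Ucp1, the uncoupling protein of brown and beige fat, was at 0, 0.246, 0 and 0.411 CPM in ad-lib and at 0, 0.865, 0.370 and 3.18 CPM in TAN, with an overlap and without passing the test (adjusted p = 0.274, edgeR).

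The higher genes with the largest fold changes, at 10 or more counts in every TAN library and no overlap, were Slc2a5, Elovl6, Hephl1, Ncan and Gm26569. Hephl1, a ferroxidase of the hephaestin family, was at 0.681, 0.689, 0 and 0.187 CPM in ad-lib and at 4.64, 4.27, 2.64 and 8.43 CPM in TAN (3.71 ± 1.10 SE, adjusted p = 0.0240, edgeR), and its call was lost without ad-lib library 3 or 4 or TAN library 1 or 4. Ncan, the proteoglycan neurocan, rose by 3.62 (adjusted p = 0.0114, edgeR) in each of the 8 fits without 1 library and stayed called at 2.57 on the summed adipocyte scale. Gm26569, a gene of unassigned function, rose by 3.34 and lost its call without ad-lib library 1, 3 or 4 or TAN library 1.

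The clock itself gave 1 call of 19, a lower gene. Over all tested genes 7.43% were called lower and 2.93% higher. Arntl was at 8.51, 6.64, 13.4 and 11.2 CPM in ad-lib and at 7.57, 3.46, 3.24 and 2.40 CPM in TAN, with an overlap at TAN library 1, and fell by 1.26 (SE 0.37, adjusted p = 0.0230, edgeR). The covariate left -1.37 (adjusted p = 0.223, edgeR), the r with the lymphocyte score was -0.03, and the call was lost without ad-lib library 3 or 4 or without TAN library 2, 3 or 4. Dbp and Nr1d1, a clock output and a repressor of Arntl, had log2 fold changes of 0.59 (adjusted p = 0.421) and 0.58 (adjusted p = 0.465), with both signs across the scalings. Per2, a clock repressor, was at 19.1, 15.01, 15.1 and 19.4 CPM in ad-lib and at 2.69, 19.0, 3.05 and 18.0 CPM in TAN, so that TAN libraries 1 and 3 lay far below the other 6. Egr3, an immediate early gene read as a sign of handling and of activated lymphocytes, fell by 2.59 (adjusted p = 0.0331, edgeR) with an r of 0.89, and was the 1 call among 17 immediate early genes. Its call held only without ad-lib library 1 or 2. Of 10 heat shock genes edgeR, limma, DESeq2 and the unadjusted p called 0, and of 10 glucocorticoid target genes edgeR called 1, Mt1, higher.

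Whether the diet effect at 4 PM differs from that at the other times was tested directly. The difference between the TAN effect at 4 PM and the mean TAN effect at the other 5 times passed an adjusted p under 0.05 for 6 of 19977 genes (0.03%): Ddx21, Ctps, Mitd1, Top2a, Sap30 and Nuf2, all lower in TAN at 4 PM without overlap. They are all the genes that passed and were named after their values were seen. Top2a, the topoisomerase of dividing cells, was at 30.5, 25.2, 43.6 and 26.3 CPM in the ad-lib and at 1.95, 2.43, 1.57 and 0.558 CPM in the TAN libraries of 4 PM, a log2 fold change of -4.26 against a mean of 0.03 at the other times (adjusted p of the difference 0.0477, edgeR). Nuf2, of the kinetochore, was at 4.04 to 7.51 CPM in ad-lib and at 0 to 0.378 CPM in TAN. Ctps, CTP synthase, was at 24.1, 17.4, 26.8 and 22.4 CPM in ad-lib and at 8.61, 10.2, 8.10 and 8.71 CPM in TAN, a log2 fold change of -1.35 against 0.02 (adjusted p of the difference 0.00890, edgeR). Ddx21, a helicase of ribosome production, fell by 1.53, Mitd1, of cell division, by 1.21, and Sap30, of a histone deacetylase complex, by 1.54, and the TMM calls of all 6 at 4 PM held in each fit without 1 library.

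The r of these genes with the lymphocyte score over the other times was 0.84 for Top2a, 0.74 for Ddx21, 0.65 for Nuf2, 0.64 for Mitd1, 0.41 for Sap30 and 0.31 for Ctps. The count of 6 was 0 with the lymphocyte score as a covariate and 0 on both adipocyte scales, and it ran from 0 to 3 when 1 library was left out. For the lipogenic genes the effect at 4 PM was not shown to differ from the other times. Elovl6 had a log2 fold change of 3.99 at 4 PM and a mean of 2.38 at the others (adjusted p of the difference 0.133, edgeR), Acly 3.01 and 1.82 (0.178), Fasn 2.51 and 1.43 (0.237) and Tkt 2.38 and 1.39 (0.113).

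**Figure D5:**
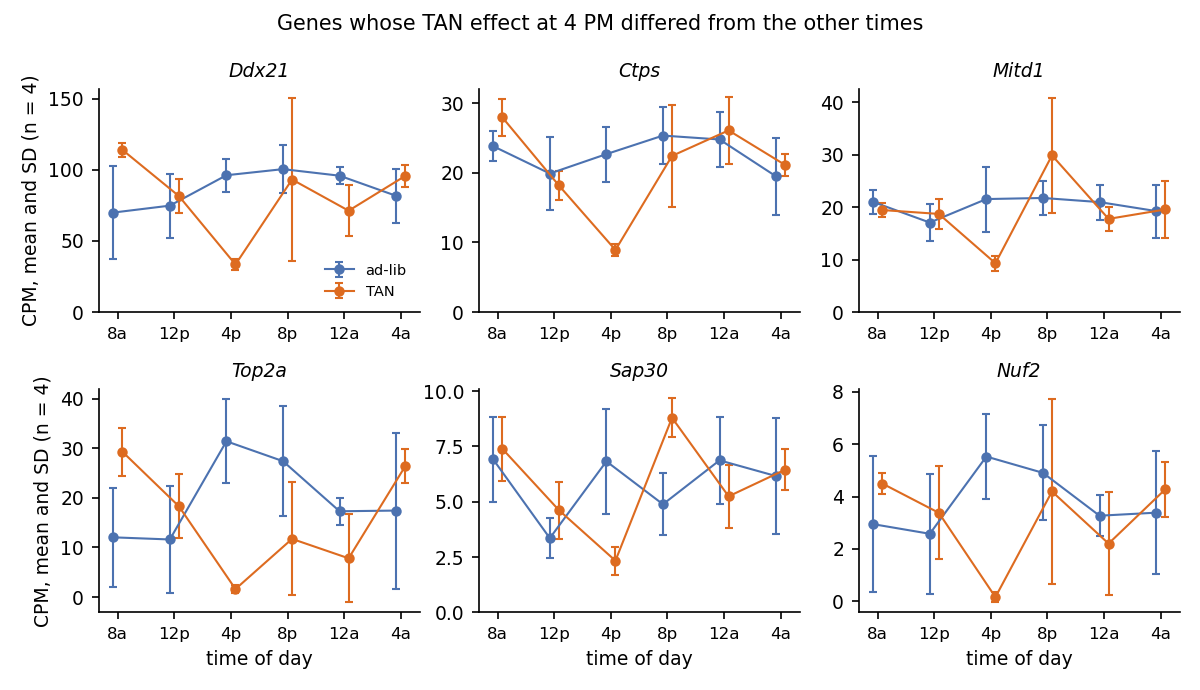
Mean CPM with SD (n = 4 libraries, vertical axes) of the 6 genes by time of day in the count table, ad-lib in blue and TAN in orange. The TAN mean is lowest at 4 PM in every panel, where Top2a falls to 1.63 CPM beside 31.4 CPM in ad-lib.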

How the data were processed

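Bulk RNA of 48 libraries (12 groups of 4, 2 diets at 6 times) was deposited by the authors as whole-number read counts per gene for 54532 genes, and the 8 libraries of 4 PM are compared here. The submitters' processing notes list TopHat 1.3.3, DESeq2 1.20.0, limma, edgeR and the builds mm9, mm10 and GRCm38 without roles, and 98.2% of the genes share their coordinates with GENCODE M21. Strandedness is not given in the sources used here. A table of group mean FPKM values deposited by the authors was not used. Every column of counts matched a sample (0 others).

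Counts were fitted with edgeR 4.0.16 (R 4.3.3, quasi-likelihood test, TMM factors) over all 12 groups, after genes were filtered at a minimum count of 10, which left 19977 of 33438 genes with a count. A gene was called at a Benjamini-Hochberg adjusted p below 0.05 and a log2 fold change past 1 in size. CPM values are TMM-scaled, with a prior count of 2 on the log2 scale. The TAN effect at 4 PM was also tested against the mean of the other 5 times. To separate lymphocyte RNA, a score of 10 markers was used to class genes and as a covariate, and libraries were rescaled on 19 adipocyte genes. Alternatives were RLE factors, other filters, left-out gene sets or libraries, limma 3.58.1 and DESeq2 1.42.0.

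Named genes were a fixed panel, the 5 called genes of largest fold change in each direction without overlap of the groups and with 10 counts or more in each of the 4 libraries of the group where the gene was higher, the 3 called members of each list with the smallest adjusted p, and the most abundant antigen receptor segment of each kind. The members and lists were chosen with earlier results of these data known. On data simulated for this comparison with 19926 genes, 98 of 200 genes changed by a log2 fold change of 2 were called (49%), with 4 false calls. Of the 200 genes, 8 had a log2 fold change of the wrong sign. The simulation held no lymphocyte difference between the diets, so its false calls do not describe a comparison where that RNA differs. Limits from a count of 0 use 3 counts, and intervals cover counting error only. Some genes are not reported here.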

Additional observations from a re-analysis of the deposited data

Results flagged for a closer look

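Among 224 groups of 4 libraries checked, 10 held a library far from the others, where the gap to the nearest library over the whole range passed Dixon's 95% critical value on the log2 CPM scale with 0.1 CPM added, and chance gives about 1 in 20 groups. TAN library 3 was such a library for 3 genes and for depth: it was the highest for Cd3e (gap over range 0.862) and Epcam (1), the lowest for Pecam1 (0.931), and had the highest total count (0.894). Ad-lib library 3 was the highest for Cd4 (0.847) and the lowest for Slc2a4 (0.909) and Decr1 (0.839). The others were ad-lib library 2, lowest for Epcam (0.872), ad-lib library 4, highest for Elovl3 (1), and TAN library 4, lowest for Sap30 (0.869).

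The TAN effect at 4 PM differed from the mean of the other 5 times for 6 genes, in the test of that difference itself (edgeR, adjusted p under 0.05). The difference in log2 fold change was -1.63 for Ddx21, -1.37 for Ctps, -1.26 for Mitd1, -4.30 for Top2a, -1.76 for Sap30 and -5.14 for Nuf2. With the lymphocyte score as a covariate, and on both adipocyte scales, the number of genes that passed was 0.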

How the results depend on the processing

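The counts of higher genes (586), of lower genes (1485) and of genes whose effect at 4 PM differs (6) were recomputed under each alternative. They were 957, 2877 and 5187 with an unadjusted p, 310, 948 and 1 with no filter, 28, 5691 and 0 on the summed and 30, 1370 and 0 on the geometric adipocyte scale (the latter added after the data were seen), 0, 0 and 0 with the lymphocyte covariate, and 20, 29 and 2 with the share of TEC loci (unclassified transcribed loci of the annotation) as covariate. The third count was 11 with a mean of at least 10 counts, 10 with RLE factors, 90 in limma and 2314 in DESeq2. At 4 PM the TEC share ran from 0.0882% to 0.110% of counts in the ad-lib and from 0.0327% to 0.0847% in the TAN libraries. Genes with a count numbered 21185 to 22587 in ad-lib and 15693 to 20089 in TAN, so both measures separated the diets without overlap. With the TEC covariate 22 of the 81 named calls were kept. A fit of only the 8 libraries of 4 PM gave 666 higher and 1854 lower genes of 16196 tested. With 1 library left out, the counts ran from 120 to 638, from 235 to 1468 and from 0 to 3. The cause was not tested. Same-numbered libraries did not deviate together (residual correlations 0.0376, 0.0789, 0.145 and 0.0623 over 5000 genes), and a replicate block gave 563, 1372 and 1, with 80 of the 81 named calls kept.

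Of 105 named genes, 81 were called, and 81 stayed called in DESeq2, 73 in limma, 41 on the summed and 40 on the geometric adipocyte scale, 37 without ad-lib library 3 and 0 with the lymphocyte covariate. Log2 fold changes that reversed on the summed adipocyte scale were Plin1 -0.057, Lipe -0.33, Pnpla2 -0.31, Pparg -0.088, Mlxipl -0.15, Srebf1 -0.56, Pkm -0.018, Cs -0.00091, Acadm -0.0077, Acads -0.028, Insr -0.76, Irs1 -0.41, Dbp -0.41 and Nr1d1 -0.41. On the geometric scale they were Lipe -0.12, Pnpla2 -0.074, Mlxipl -0.021, Srebf1 -0.37, Insr -0.54, Irs1 -0.23, Dbp -0.22 and Nr1d1 -0.24. With the covariate they were Cd22 0.68, Cd3e 0.46, Cd8a 0.26, Ccr7 0.67, Trbc2 0.20, Glycam1 0.070, Pnpla2 -0.018, Mlxipl -0.32, Srebf1 -0.092, Insr -0.33, Irs1 -0.20 and Nr1d1 -0.012. The lymphocyte score separates the diets at 4 PM without overlap, as does the TEC share, so each covariate and the diet can be told apart only through the other times.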
